A study of Mus musculus with 8 samples.

Results

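The interferon-stimulated genes described here are 34 genes of the mouse interferon response, taken from a list of gene names and found on the arrays through the transcript each probe was designed for. A probe was matched for 32 of the 34 genes, out of 20886 named genes with a probe, and 31 of the 32 were bright enough to be tested, among 14491 named genes tested. Macrophages had been isolated from mice after treatment with LPS, the endotoxin of Gram-negative bacteria, and total RNA of each sample was hybridised to a 1-colour Agilent expression array. There were 4 arrays of EP2KO mice, which lack the prostaglandin E2 receptor EP2 (gene Ptger2), and 4 of wild-type (WT) mice. Both genotypes received LPS, both are labelled male, and no untreated macrophages were among the samples, so the response to LPS itself cannot be read from these data. The labels give neither the site of the macrophages nor the dose, duration, strain, age or type of deletion, and whether each replicate was its own mouse is not stated. The p-values therefore cover the spread between these arrays, which may be technical.

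LPS acts on TLR4 and, through the adaptor TRIF and the transcription factor IRF3, makes macrophages produce interferon beta. Secreted interferon binds its receptor on the same and on neighbouring cells, and JAK kinases then activate a complex that includes STAT2 and IRF9 and binds the interferon-stimulated response element (ISRE) in the promoters of antiviral genes. Interferon gamma, made mainly by T and NK cells, acts through a separate receptor and the gamma-activated site (GAS), and it strongly induces IRF1 and the guanylate-binding proteins.

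Promoter sequences show what many of these genes have in common beside the name of the list. They were taken from RefSeq (GRCm38.p6), each running from 250 bases before to 50 bases after a gene's start, and 27 of the 34 genes had at least 1 entry. The ISRE core, searched on both strands as GAAA, any 2 bases and GAAA again, was present in 14 of the 27 genes (51.9%) and in 3.99% of all genes of the table. The GAS core, on both strands as TTC, any 3 bases and GAA, was present in 7 of the 27 (25.9%) and in 9.55% of all genes. Shown here are 6 members that changed between the 2 slides, as described further on, and Ifit1, which did not pass that test, 5′ to 3′ along the gene's strand with ISRE cores in capitals, a core on the other strand reading TTTC, any 2 bases and TTTC.
Gbp2, chr3:142620584-142620633, plus strand: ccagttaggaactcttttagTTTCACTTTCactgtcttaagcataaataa
Gbp3, chr3:142559985-142560034, plus strand: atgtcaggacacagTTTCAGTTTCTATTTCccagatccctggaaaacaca
Gbp5, chr3:142496749-142496798, plus strand: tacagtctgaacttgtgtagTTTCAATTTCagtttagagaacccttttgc
Isg15, chr4:156200855-156200904, minus strand: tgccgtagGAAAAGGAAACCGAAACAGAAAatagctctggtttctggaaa
Ifit1, chr19:34640784-34640833, plus strand: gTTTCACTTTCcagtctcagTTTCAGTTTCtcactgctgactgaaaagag
Oas1g, chr5:120887614-120887645, minus strand: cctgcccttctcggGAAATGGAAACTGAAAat
Rsad2, chr12:26456543-26456592, minus strand: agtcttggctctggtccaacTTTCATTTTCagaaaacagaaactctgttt
Overlapping cores run together in Gbp3, Isg15 and Oas1g. A match describes these letters only and does not show that a factor binds there.

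The arrays lay on 2 slides with 2 arrays of each genotype per slide, replicates 1 and 2 on slide 1 and replicates 3 and 4 on slide 2, and the slides were scanned on different days. EP2KO arrays held positions 3 and 4 and WT arrays positions 1 and 2 on both slides, and the genotypes cannot be told apart from their positions. No spot was saturated, from 25554 to 32142 of 39429 probes per array exceeded background clearly, and the number of arrays limits the precision. Of 11 macrophage markers, 10 were tested and all 10 were well above background on all 8 arrays. Xist, the transcript of the inactive X chromosome, was well above background on all 8 arrays for both of its probes, while the Y-linked genes Ddx3y, Eif2s3y and Kdm5d were so on 0 arrays and Uty on 1 array through 1 of its probes, which goes against the label male on arrays of both genotypes. Signals below are relative to the 75th percentile of all gene probes on the same array, so a signal of 1 equals that percentile; signals of different probes cannot be set against each other. Log2 differences are given ± the limma standard error (SE), with 4 arrays per genotype.

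Ptger2, the deleted gene, had signals of 0.390, 0.319, 0.347 and 0.240 on EP2KO arrays, against 1.07, 1.21, 0.971 and 1.07 on WT arrays. The groups did not overlap, with a log2 difference of -1.76 and an exact two-sided permutation p of 0.0286, the smallest that 4 against 4 arrays allow. Its limma adjusted p over all features was 0.072, 0.0412 in the slide-blocked fit and 0.225 in the fit with the replicate number as a block.

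None of the 31 tested interferon-stimulated genes passed the test between EP2KO and WT macrophages at an adjusted p of 0.05 (limma with Benjamini-Hochberg adjustment over 20736 features), where 0.00965% of all features did. With the slide as a block 0 members passed against 0.0193% of features, and with the replicate number as a block 0 members against 0% of features. At an unadjusted p under 0.05 there was 1 member, Ifi44, against 1.97% of features. With either block there were 3, Zbp1, Ifi44 and Ifi47, against 7.34% of features with the slide and 5.46% with the replicate number. The lowest adjusted p of any member was 1 without a block, 0.359 with the slide block and 0.719 with the replicate block. Of the 31 genes, 12 were higher and 19 lower by sign in EP2KO macrophages, with a median difference of -0.06, while the median of all features was -0.02 and 45.2% of them were higher. These signs depend on the scaling: with median scaling 23 members were higher and 8 lower, with a median of 0.07, while the median of all features was 0.11 and 74.3% of them were higher. For 28 of the 31 genes the 95% interval of the slide-blocked difference lay within 2-fold in either direction, as it did for 82.7% of all features, and the exceptions were Irf7, Ifi44 and Usp18. Without a block this held for 21 of the 31 genes and 67.9% of all features.

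**Figure D1:**
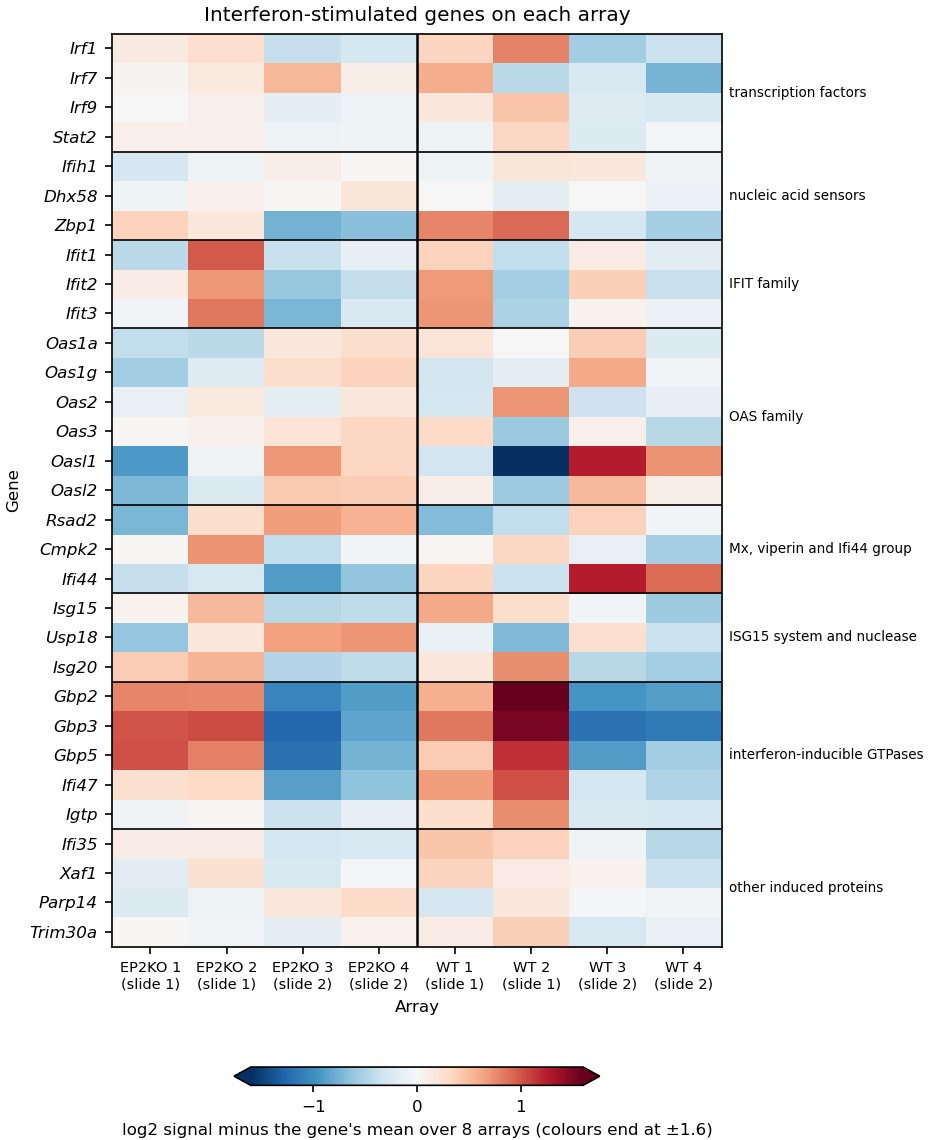
Heat map of the 31 tested interferon-stimulated genes (rows, grouped by role) on the 8 arrays (columns, EP2KO left of WT), with each gene's log2 signal minus its own mean over the arrays as colour. The guanylate-binding proteins Gbp2, Gbp3 and Gbp5 part the slides in both genotypes, and no gene parts EP2KO from WT on all arrays.

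Interferon beta itself, the ligand gene Ifnb1, was not well above background on any of the 8 arrays and was not tested. Mx1 and Mx2, of a family of dynamin-like GTPases that block viral replication, had no probe matched and are not analysed here. The RefSeq annotation used here lists both as transcribed pseudogenes. Among the transcription factors, Irf9, the DNA-binding subunit of the STAT complex, had signals of 6.84, 7.28, 6.26 and 6.52 on EP2KO arrays, against 7.76, 9.37, 5.96 and 5.75 on WT arrays. The EP2KO values lay inside the WT range, and the difference was -0.07 ± 0.18 (SE). Irf7, which amplifies interferon production, had signals of 0.549, 0.591, 0.764 and 0.573 on EP2KO arrays, against 0.791, 0.392, 0.447 and 0.318 on WT arrays. EP2KO arrays were higher except against WT 1, with a difference of 0.42 ± 0.28 (SE). Irf1, an interferon gamma-induced activator, differed by -0.12 ± 0.32 and Stat2 by 0.00 ± 0.15.

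Of the nucleic acid sensors, Zbp1, which senses Z-form nucleic acid and triggers cell death, had signals of 2.86, 2.50, 1.31 and 1.39 on EP2KO arrays, against 3.81, 4.15, 1.83 and 1.52 on WT arrays. Within each slide both EP2KO arrays were below both WT arrays, by a mean of 0.30 on slide 2 and 0.57 on slide 1, but over all 8 arrays the genotypes overlapped. The difference was -0.44 ± 0.42 without a block, and its SE was 0.11 with the slide block (unadjusted p = 0.00633, limma adjusted p = 0.359). Dhx58, the LGP2 helicase that modulates the RNA sensors RIG-I and MDA5, had signals of 0.930, 1.03, 0.985 and 1.12 on EP2KO arrays, against 0.974, 0.885, 0.981 and 0.915 on WT arrays. Its difference was 0.11 ± 0.12, and Ifih1, which encodes MDA5, differed by -0.11 ± 0.14.

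The IFIT genes encode proteins that bind viral RNA and block its translation. Ifit3 had signals of 0.251, 0.461, 0.156 and 0.218 on EP2KO arrays, against 0.419, 0.182, 0.268 and 0.242 on WT arrays. Ifit2 had signals of 0.0857, 0.128, 0.0519 and 0.0602 on EP2KO arrays, against 0.126, 0.0541, 0.102 and 0.0613 on WT arrays. EP2KO 2 and WT 1 were highest for both genes and WT 3 came next, though for Ifit3 it was only slightly above EP2KO 1. The difference was -0.08 ± 0.38 for each of the genes. Ifit1 differed by 0.03 ± 0.34. The summed signal of 9 fibroblast and mesothelial markers was 56.0, 93.8, 26.1 and 4.08 on EP2KO arrays, against 89.8, 19.9, 120 and 136 on WT arrays, and its part in these differences was not tested.

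The OAS family includes enzymes that sense double-stranded RNA and make the activator of RNase L. Oas1a had signals of 13.6, 13.2, 20.3 and 21.7 on EP2KO arrays, against 20.7, 17.8, 23.5 and 15.5 on WT arrays. The ranges overlapped, with a difference of -0.19 ± 0.22 (SE). Oas3 had signals of 0.153, 0.159, 0.177 and 0.192 on EP2KO arrays, against 0.188, 0.101, 0.161 and 0.111 on WT arrays, a difference of 0.32 ± 0.22. The WT replicates of Oas3 spread more widely than the EP2KO ones. Oas2 differed by 0.03 ± 0.25, Oasl1 by 0.02 ± 0.66 and Oasl2 by -0.07 ± 0.33. Oas1a and Oas1g are near-identical copies whose probes may share signal.

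Rsad2 encodes viperin, which makes a chain-terminating nucleotide with the product of its neighbour Cmpk2. Rsad2 had signals of 0.326, 0.657, 0.866 and 0.797 on EP2KO arrays, against 0.335, 0.411, 0.703 and 0.525 on WT arrays. EP2KO arrays averaged higher on both slides, by 0.45 on slide 2 and 0.32 on slide 1, but the groups overlapped and the difference was 0.38 ± 0.36. Cmpk2 differed by 0.15 ± 0.28. Ifi44, an interferon-induced protein that restricts several viruses, had the largest difference of the 31 genes. Its signals were 0.0269, 0.0291, 0.0187 and 0.0223 on EP2KO arrays, against 0.0440, 0.0274, 0.0827 and 0.0646 on WT arrays. All of them were dim, though well above background on every array. EP2KO 1 lay just below and EP2KO 2 just above WT 2, while on slide 2 both EP2KO arrays were far below both WT arrays. The mean level was 2.11-fold lower in EP2KO macrophages, with a log2 difference of -1.08 ± 0.35 (unadjusted p = 0.0148, limma adjusted p = 1, and 0.474 with the slide block).

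Isg15, a ubiquitin-like modifier, had signals of 3.19, 4.39, 2.24 and 2.30 on EP2KO arrays, against 4.66, 3.72, 2.98 and 2.06 on WT arrays. The difference was -0.14 ± 0.31, and the ranges overlapped. Usp18, the protease that removes ISG15 and dampens receptor signalling, had signals of 0.531, 0.921, 1.29 and 1.33 on EP2KO arrays, against 0.760, 0.499, 0.973 and 0.642 on WT arrays. On slide 2 both EP2KO arrays were above both WT arrays, on slide 1 they overlapped, and the difference was 0.46 ± 0.34. Isg20, an exonuclease, differed by 0.04 ± 0.36.

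The interferon-inducible GTPases act on the vacuoles of intracellular pathogens, and GBP5 also promotes inflammasome assembly. All 5 were lower by sign in EP2KO macrophages with the 75th-percentile scaling, but 3 of 5 with median scaling and 4 of 5 with quantile or normexp processing, and 0 of the 5 passed the test. Ifi47 had signals of 5.62, 5.86, 2.58 and 3.01 on EP2KO arrays, against 7.45, 9.58, 3.86 and 3.37 on WT arrays. Both EP2KO arrays were below both WT arrays on each slide, and the difference was -0.47 with an SE of 0.43 without a block and 0.12 with the slide block (unadjusted p = 0.00661, limma adjusted p = 0.364). Igtp, which encodes IRGM3, had signals of 3.53, 3.73, 2.89 and 3.35 on EP2KO arrays, against 4.45, 6.11, 3.07 and 3.02 on WT arrays, a difference of -0.25 ± 0.25. Gbp2 differed by -0.19 ± 0.71, Gbp3 by -0.03 ± 0.81 and Gbp5 by -0.06 ± 0.65 without a block. With the slide block the SEs of these differences were 0.23, 0.17 and 0.21, and none of the 3 had an unadjusted p under 0.05. All 9 tested T and NK cell markers were also lower by sign in EP2KO macrophages (median -0.67, 0 past the test). On slide 2 their summed signals were 7.77 and 8.60 on EP2KO arrays, against 6.64 and 7.30 on WT arrays. On slide 1 the sums were 31.8 and 21.5 on EP2KO arrays, against 43.3 and 41.5 on WT arrays. Lower by sign, too, were 6 of 6 B cell, 5 of 5 conventional dendritic cell and 9 of 9 fibroblast and mesothelial markers. Plasmacytoid dendritic cell markers were lower for 7 of 8, macrophage markers for 5 of 10, and eosinophil and mast cell markers for 2 of 9. No gene of these lists passed the test. The part of any of these cells in the GTPase differences was not tested.

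Of the other induced proteins, Ifi35, a partner of NMI, had signals of 2.09, 2.09, 1.59 and 1.63 on EP2KO arrays, against 2.61, 2.49, 1.85 and 1.41 on WT arrays. Xaf1, a pro-apoptotic antagonist of XIAP, had signals of 1.1, 1.46, 1.04 and 1.23 on EP2KO arrays, against 1.59, 1.36, 1.29 and 0.981 on WT arrays. Both genes overlapped between genotypes, with differences of -0.15 ± 0.23 for Ifi35 and -0.10 ± 0.19 for Xaf1. Parp14, a mono-ADP-ribosyltransferase, differed by 0.09 ± 0.17 and Trim30a, a regulator of NF-kB signalling, by -0.06 ± 0.16. Across the 31 genes, no gene had groups that did not overlap in either direction, where 0.468% of all features were higher and 0.916% lower without overlap. For 7 members with several bright probes, the genotype difference had both signs among the probes for 3 of them, and probes of a gene were at most 0.25 apart on the log2 scale.

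**Figure D2:**
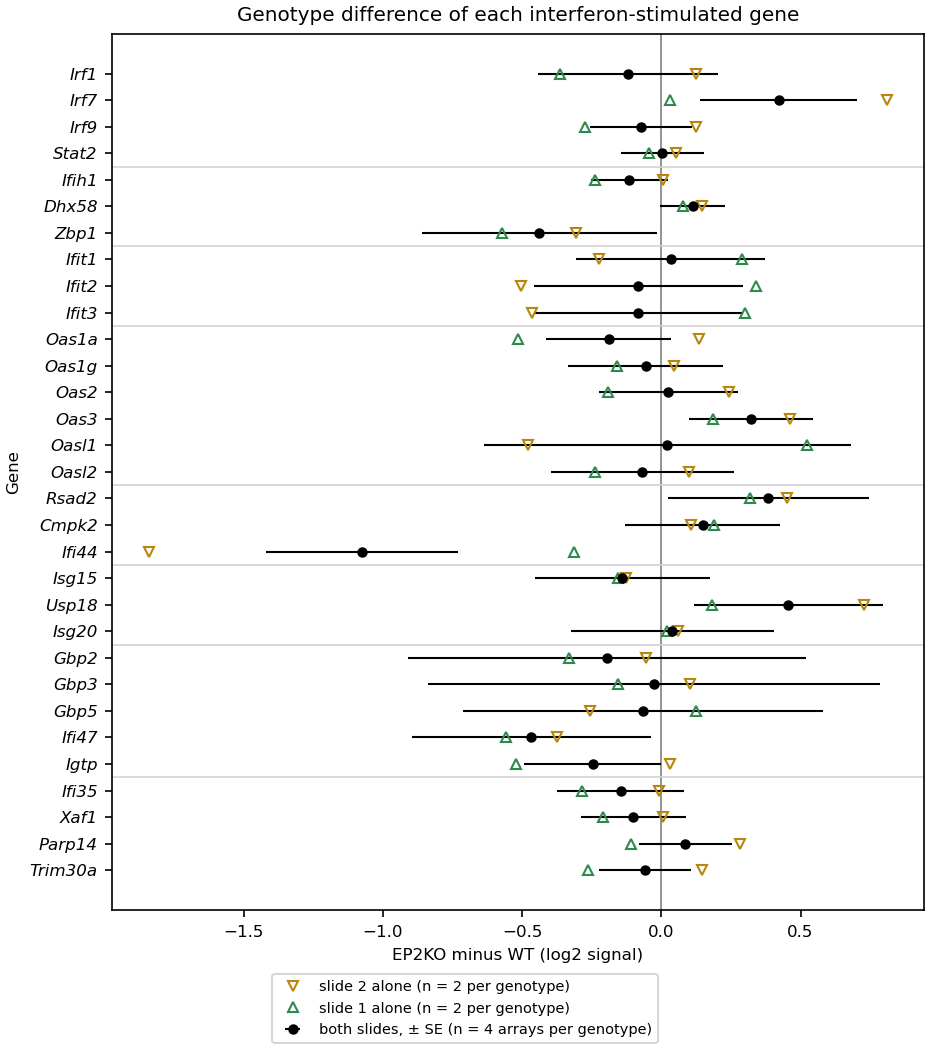
Log2 difference EP2KO minus WT of each of the 31 genes, grouped by role, with the SE of the limma fit without a block as bars and the differences on slide 2 and slide 1 as separate triangles. The median gene lies at -0.06, and Ifi44 lies farthest from 0, with -1.84 on slide 2 and -0.31 on slide 1.

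The genotype differences were compared between slides next. In all, 13 of the 31 genes (41.9%) had the same sign on both slides, where 37% of all features did. Higher in EP2KO macrophages on both slides were Irf7, Dhx58, Oas3, Rsad2, Cmpk2, Usp18 and Isg20, and lower on both were Zbp1, Ifi44, Isg15, Gbp2, Ifi47 and Ifi35. The median difference of the members was 0.05 on slide 2 and -0.16 on slide 1, against 0.04 and -0.08 for all features. Within slide 2 alone, 1.47% of features and 1 member passed the test, Ifi44, which fell by 1.84 on the log2 scale in EP2KO macrophages (limma adjusted p = 0.0484). At an unadjusted p under 0.05 there were 3 members on slide 2 (Ifi44 lower, Irf7 and Usp18 higher), against 16.6% of features. Within slide 1 alone, 0% of features and 0 members passed, and the adjusted p of Ifi44 was 0.643. At an unadjusted p under 0.05 there were 3 members on slide 1 (Zbp1, Oas1a and Ifi47, all lower), against 12.9% of features. The interaction of genotype and slide, which tests whether the differences differ, was passed by 0.0145% of features and 0 members, with a limma adjusted p of 0.13 for Ifi44 (0.0377 without WT 1). At an unadjusted p under 0.05, the interaction took in Ifi44 as the 1 member, against 20.9% of features. Fibroblast and mesothelial markers moved the same way as Ifi44 on slide 2, with a median of -3.96 over the 9 genes and summed signals of 26.1 and 4.08 on EP2KO arrays, against 120 and 136 on WT arrays. On slide 1 the median of these markers was 1.02, where Ifi44 differed by -0.31; their part in the Ifi44 difference was not tested.

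Replicates of a genotype on the same slide also differed among themselves. WT 2 differed from WT 1 by over 2-fold for 5 members (16.1%, against 9.93% of all features), with Irf7, Ifit2, Ifit3 and Oasl1 lower and Gbp2 higher in WT 2. EP2KO 2 exceeded EP2KO 1 by over 2-fold for Ifit1 and Rsad2 (6.45%, against 1.8%). On slide 2 no member differed by over 2-fold between replicates of either genotype, where 3.54% of all features did for EP2KO and 4.73% for WT.

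The slide divided the members more than the genotype did: the median absolute difference was 0.50 between slides and 0.11 between genotypes, against 0.42 and 0.11 for all features. On slide 2, 10 members were lower than on slide 1 and 4 were higher (limma with genotype and slide as terms, adjusted p under 0.05). These are 32.3% and 12.9% of the 31 genes, against 19.6% lower and 23.9% higher of all features, and 45.2% against 43.5% in either direction, so the share of members that changed was near that of all features. With normexp the shares were lower and farther apart, 29% of members against 17% of features. The median slide difference was -0.27 for the members and 0.03 for all features. Slide and scan day coincide, so what differed between the slides cannot be told apart from when they were scanned. The genes lower on slide 2 were Gbp2, Gbp3, Gbp5, Ifi47, Igtp, Irf1, Zbp1, Isg15, Isg20 and Ifi35. Those higher on slide 2 were Oasl1, Oasl2, Oas1g and Rsad2.

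Gbp3 had signals of 2.59 and 3.46 on EP2KO arrays and 2.75 and 2.83 on WT arrays of slide 2, against 12.5 and 12.8 on EP2KO arrays and 11.2 and 17.7 on WT arrays of slide 1. It fell by 2.21 ± 0.17 on the log2 scale, or 4.62-fold (limma adjusted p = 0.000196). All 4 arrays of slide 2 lay far below all 4 arrays of slide 1, in both genotypes alike. Gbp2 had signals of 2.64 and 2.95 on EP2KO arrays and 2.83 and 2.96 on WT arrays of slide 2, against 9.44 and 9.32 on EP2KO arrays and 8.14 and 17.2 on WT arrays of slide 1, and was 3.70-fold lower on slide 2 (adjusted p = 0.000849). Gbp5 had signals of 0.191 and 0.260 on EP2KO arrays and 0.237 and 0.299 on WT arrays of slide 2, against 0.895 and 0.766 on EP2KO arrays and 0.584 and 0.986 on WT arrays of slide 1, and was 3.25-fold lower on slide 2 (adjusted p = 0.000964). These 3 guanylate-binding proteins, which lie on chromosome 3, had the largest falls of the 31 genes. Ifi47 was 2.20-fold and Zbp1 2.17-fold lower on slide 2 (adjusted p = 0.000571 and 0.000461 in the same fit). The falls of Irf1 (-0.78 ± 0.16), Isg15 (-0.73 ± 0.16), Isg20 (-0.93 ± 0.14), Ifi35 (-0.52 ± 0.12) and Igtp (-0.50 ± 0.16) were smaller. Igtp no longer passed when any array other than EP2KO 4 was left out (adjusted p from 0.0501 to 0.104), nor with normexp, median scaling or no filter on dim probes (up to 0.112), and Ifi35 did not with normexp (0.0608).

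Oasl1, which restrains translation of Irf7, had signals of 5.76 and 4.46 on EP2KO arrays and 8.50 and 5.87 on WT arrays of slide 2, against 1.87 and 3.43 on EP2KO arrays and 2.87 and 1.09 on WT arrays of slide 1. It was 2.83-fold higher on slide 2, with a difference of 1.5 ± 0.39 (limma adjusted p = 0.0195), and the slides did not overlap. Oasl2 had signals of 3.55 and 3.51 on EP2KO arrays and 3.80 and 2.86 on WT arrays of slide 2, against 1.61 and 2.27 on EP2KO arrays and 2.86 and 1.78 on WT arrays of slide 1. It was 1.64-fold higher on slide 2 (adjusted p = 0.0268), with WT 4 of slide 2 at the level of WT 1 of slide 1. Rsad2, whose signals are given above, was 1.71-fold higher on slide 2 (adjusted p = 0.0308). Oas1g, which was dim with signals from 0.0174 to 0.0391, differed by 0.61 ± 0.17 (adjusted p = 0.0241). Each of these 4 calls was lost when some arrays were left out, with adjusted p up to 0.0588 for Oasl1 without EP2KO 1, WT 3 or WT 4, up to 0.0749 for Oasl2 without EP2KO 1, 3 or 4 or WT 2 or 3, and up to 0.0826 for Rsad2 and 0.074 for Oas1g without EP2KO 1, 3 or 4 or WT 1 or 3. Other settings lost them too. Oas1g did not pass with normexp or median scaling (adjusted p up to 0.362), nor Oasl2 with normexp or no filter on dim probes (up to 0.127). Oasl1 did not pass with normexp (0.0525), nor Rsad2 with no filter on dim probes (0.0567). Irf1, Zbp1, Isg15, Isg20, Gbp2, Gbp3, Gbp5 and Ifi47 passed under every setting and with every array left out.

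**Figure D3:**
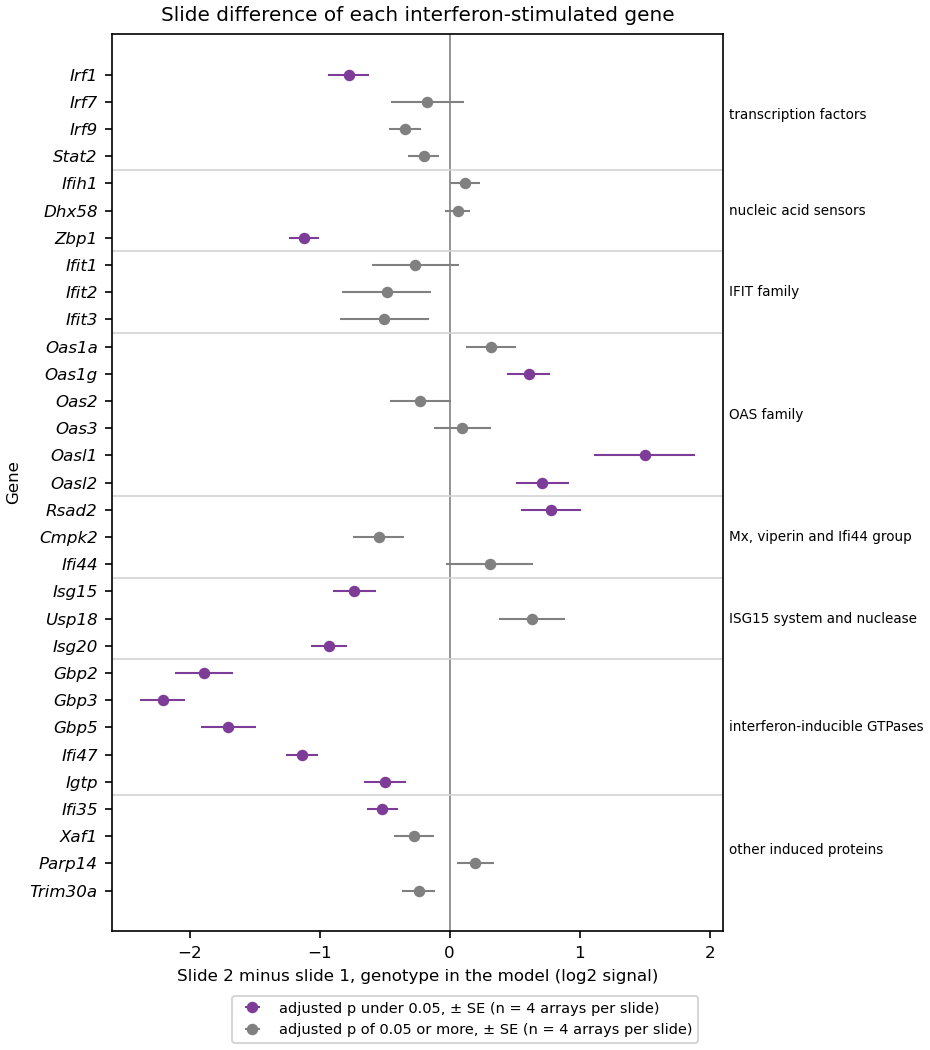
Log2 difference slide 2 minus slide 1 of each of the 31 genes with the SE of the limma fit as bars, grouped by role, with genes past the test in purple and the others in grey. All 5 interferon-inducible GTPases lie below 0, and 5 of 6 OAS genes lie above 0, of which 3 passed the test.

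By role, all 5 GTPases were lower on slide 2, and all 5 were lower by sign under each scaling (4 passed with median scaling or normexp). Of the 6 OAS genes 5 were higher by sign under each scaling, of which 3 passed, against 2 with median scaling and 0 with normexp. The 3 IFIT genes were lower by sign and 0 passed, and with normexp 1 of 3 was lower. Counting slides that did not overlap, 2 members were higher on slide 2 (Oas1g and Oasl1, where 23.9% of features were) and 12 lower (19.6% of features), those 12 being the 10 named above with Irf9 and Cmpk2. The ISRE core was present in 5 of 9 members lower on slide 2 with a promoter entry, in 2 of 4 higher and in 7 of 13 not called. The GAS core was present in 5 of the 9 (Gbp5, Ifi35, Igtp, Irf1 and Isg20), in 0 of the 4 and in 2 of the 13. These are descriptions of short windows with few genes.

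**Figure D4:**
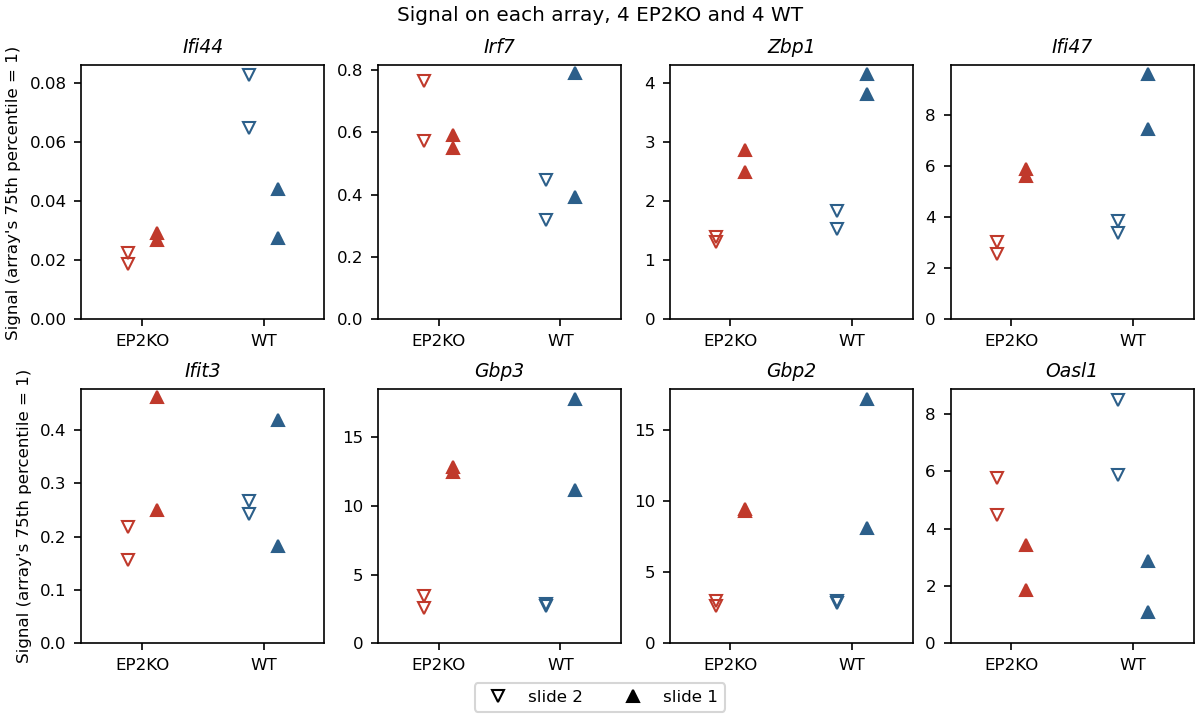
Signal relative to the array's 75th percentile (linear axes, each with its own range) of 8 interferon-stimulated genes, EP2KO in red left of WT in blue, with 1 open triangle for each slide 2 array and 1 filled triangle for each slide 1 array. Gbp2 and Gbp3 separate by slide in both genotypes, Oasl1 separates the other way, and Ifi44 separates by genotype on slide 2.

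Other genes of the pathway showed no call between EP2KO and WT macrophages: 0 genes of the 6 lists that follow passed, with or without the slide as a block. Among 10 interferon receptor and JAK-STAT genes the median difference was -0.04, with Stat3 at -0.29 ± 0.23 and Ifngr1, a subunit of the interferon gamma receptor, at -0.24 ± 0.25. Among 19 genes that induce interferon the median was 0.03, with the DNA sensor Cgas at 0.27 ± 0.17 and its adaptor Sting1 at -0.35 ± 0.15. Sting1 had signals of 6.45, 5.51, 4.93 and 6 on EP2KO arrays, against 8.15, 7.73, 6.08 and 7.27 on WT arrays, with EP2KO 1 above WT 3. Its limma unadjusted p was 0.0472 without a block. With the slide block its unadjusted p was 0.0198 and its limma adjusted p was 0.539. Of 18 interferon genes 10 were tested (median -0.18), with Ifna12 at -0.28 ± 0.16 and Ifnl3 at -0.31 ± 0.22. Among 10 negative regulators the median was -0.07, with Trim21 at -0.16 ± 0.18 and Socs3 at -0.56 ± 0.71. Among 34 other interferon-induced genes it was -0.01, with Lgals3bp at 0.37 ± 0.19 and the ubiquitin ligase Trim25 at 0.43 ± 0.26.

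Of 24 interferon gamma-induced genes 23 were tested, and 4 were higher and 19 lower by sign in EP2KO macrophages, with a median of -0.20 (0.01 on slide 2 and -0.40 on slide 1). Gbp8, another guanylate-binding protein, had signals of 0.0303, 0.0321, 0.0128 and 0.0132 on EP2KO arrays, against 0.0357, 0.0502, 0.0434 and 0.0542 on WT arrays. These signals were dim, though well above background on every array. Every EP2KO array was below every WT array, as for 0.916% of all features. The difference was -1.17 ± 0.36 without a block (limma unadjusted p = 0.0116). With the slide block its unadjusted p was 0.00647 and its limma adjusted p was 0.361. Nlrc5, the activator of MHC class I genes, differed by -0.43 ± 0.24.

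Between slides, 13 of the 23 interferon gamma-induced genes passed the test as lower on slide 2 and 1 as higher (56.5% and 4.35%, against 19.6% and 23.9% of all features). Some of them were picked after their values had been seen. Cxcl9, a chemokine for T cells, had signals of 0.00738 and 0.00253 on EP2KO arrays and 0.0296 and 0.0158 on WT arrays of slide 2, against 0.0658 and 0.0983 on EP2KO arrays and 0.158 and 0.205 on WT arrays of slide 1. Its probe was not well above background on either EP2KO array of slide 2, so the size of its slide difference is not given. Gbp7 differed by -1.83 ± 0.18 and Tgtp2 by -1.6 ± 0.15, while Cd274, which encodes PD-L1, was higher by 1.09 ± 0.22 on slide 2. The gene of interferon gamma itself, Ifng, had signals of 0.00942 and 0.0159 on EP2KO arrays and 0.0167 and 0.0155 on WT arrays of slide 2, against 0.0405 and 0.0482 on EP2KO arrays and 0.0572 and 0.102 on WT arrays of slide 1. All 4 arrays of slide 2 were below all 4 arrays of slide 1, but 1 EP2KO array of slide 2 was not well above background, so no size is given. Of 10 interferon genes, 6 others passed the test as higher on slide 2, namely Ifna1, Ifna2, Ifna7, Ifna14, Ifnab and Ifnk. All 6 were dim, with signals from 0.00503 to 0.131. Ifna2, Ifna7 and Ifnk were kept through the EP2KO arrays, being well above background on only 3, 2 and 3 of the 4 WT arrays. The sizes of these differences are therefore not given. Past the test, the receptor and JAK-STAT genes had 2 higher and 1 lower, the inducing genes 4 and 4, the negative regulators 0 and 6 and the other interferon-induced genes 6 and 10.

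Markers of other cell types were compared between the slides as well, and the counts here are of genes past the test. By that test 19.6% of all features were lower and 23.9% higher on slide 2, or 43.5% in either direction. T and NK cell markers were lower on slide 2 for 8 of 9 genes, with summed signals of 6.64 to 8.60 on slide 2, against 21.5 to 43.3 on slide 1. B cell markers were lower for 5 of 6, with sums of 4.79 to 16.0 on slide 2, against 63.5 to 102 on slide 1. Conventional dendritic cell markers were lower for 4 of 5, eosinophil and mast cell markers for 8 of 9, and neutrophil markers for 4 of 7 with 1 higher. Macrophage markers were lower for 3 and higher for 2 of 10, plasmacytoid dendritic cell markers lower for 3 and higher for 1 of 8, erythroid and platelet markers lower for 2 of 6, and endothelial markers higher for 2 and lower for 1 of 4. Fibroblast and mesothelial markers passed for 0 of 9. In such bulk samples fewer cells of a type and less RNA per cell cannot be told apart, and the part of these cells in the slide differences of the interferon-stimulated genes was not tested.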

How the data were processed

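Per the labels' protocols, Cy3-labelled cRNA was made from 0.5 µg of total RNA. The deposited scanner files hold spot intensity on a linear scale, background-corrected, extracted with Feature Extraction 10.7.1.1 per the file headers (the submitters' processing notes name version 9.1). The deposited series table held the same intensity values (largest log2 difference 0).

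Each array's 75th percentile over gene probes was subtracted from log2 of the processed signal. Of 44397 spots, 1377 control spots were left out, outlier spots were set missing and spots of a probe averaged. A RefSeq gene table (GRCm38.p6) named 27508 of 39429 probes; the array design states mm9, so it served for names and neighbours only. A probe was kept if all arrays of either genotype had it well above background, and the brightest stood for its gene (20736 features). limma 3.58.1 in R 4.3.3 compared EP2KO with WT, without and with slide or replicate block, and slide 2 with slide 1, two-sided, with Benjamini-Hochberg adjustment at 0.05 over all features. The fits were tested on simulated data. Same-numbered arrays deviated together (r = 0.737, 0.122, 0.553 and 0.428 for numbers 1 to 4), but each pair shares a slide. Members and lists were chosen with earlier results of these data known. Values per array are given for Ptger2 and for the 2 members of each role with the smallest unadjusted p without a block. They are also given for the 3 members with the largest slide difference in each direction among those past the test. From each pathway list the 2 genes with the smallest unadjusted p without a block are named. For the interferon gamma-induced list, the 2 with the smallest unadjusted p for genotype in the slide-blocked fit are named as well. Alternatives covered background correction (normexp, offset 50, on median rather than the planned mean spot signals, which these files lack), scaling, filter, probe choice, blocks and each array left out.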

Additional observations from a re-analysis of the deposited data

How the results depend on the processing

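Between EP2KO and WT, 0 members passed in every setting over all 8 arrays and with any array left out; the exception was within slide 2 alone, with 1 (Ifi44). The features called, 2 without a block, numbered 4 with the slide block or a random slide block and 0 with the replicate block. The labels give replicate numbers but state no pairing. Within slide 1 the features called numbered 0, within slide 2 they numbered 336, and with an array left out 0 to 4. With the slide block and an array left out together, a setting chosen after seeing the data, 0 members passed. The interaction was passed by 0 to 1 members with an array left out. Ptger2 passed neither without a block (adjusted p = 0.072) nor with the replicate block (0.225) but passed with quantile normalization (-1.73), the slide block (-1.76) and the random block (-1.76), and ranged from -1.85 to -1.62 with an array left out. Members without overlap between genotypes numbered 1 with normexp (Ifi44, lower, as 2.06% of features) and 2 with median scaling (Ifi44, lower, as 0.444% of features, and Dhx58, higher, as 1.27%). With an array left out, the members' median genotype difference ran from -0.13 (without WT 4) to 0.06 (without WT 2); it was 0.07 with median scaling, -0.16 within slide 1 and 0.05 within slide 2, and 8 of 31 members kept their sign throughout. Scaling on the median moved the median of all features to 0.11, against -0.02, and normexp moved it to -0.10. Between slides, 14 members and 9023 features passed, against 9 and 3533 with normexp and 9 (without WT 3) to 15 (without WT 2) members and 6629 to 9623 features with an array left out, and the members' median ran from -0.38 to -0.23. No slide call changed direction. The causes were not tested. The 4 arrays per genotype limit what can be detected: 95% intervals reach beyond 2-fold for 10 members without a block and for 3 with the slide block.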
